A study of Arabidopsis thaliana with 6 samples.

Results

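The list examined here was drawn up by locus, with earlier results of these data known. It holds 31 genes that encode papain-like cysteine proteases. Of these, 18 had a probe set (the set of short probes for one transcript) that the probe table assigns to that gene alone, among 13286 genes measured in that way. XCP1 and XCP2 were named only through the study's supplementary list of probe sets that changed in these same samples, and they are described apart. The remaining 11 genes (RD21A, RD21B, AT4G11310, AT4G11320, XBCP3, CEP1, CEP2, CEP3, SAG12, RD19 and ALP) were not analysed here.

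The samples were whole seedlings of *Arabidopsis thaliana*, with root, hypocotyl and cotyledons together. The wild type was Col-0, and the mutant was *rcb-10* in the same ecotype, a T-DNA insertion line of REGULATOR OF CHLOROPLAST BIOGENESIS (RCB) that lacks the RCB protein and forms tall, albino seedlings in R light. Both genotypes were stratified for 4 days and then grown for 4 days in R light of 10 μmol per square metre each second, on medium without sucrose, and 3 biological replicates of each were grown and sampled separately, giving 6 ATH1 arrays. A single mutant allele was measured, and the comparison asked which transcripts depend on RCB.

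Papain-like proteases cut proteins with a cysteine in their active site. They are made as inactive precursors whose prodomain is removed as the enzyme matures, and most of them pass through the secretory pathway to the vacuole, to bodies derived from the endoplasmic reticulum or to the cell wall space. In plants they are known for bulk protein breakdown in vacuoles, for the mobilization of seed reserves, for the clearing of dying cells in xylem and in senescing leaves, and for immunity. Cystatins block them, and vacuolar processing enzymes are proteases of another family that mature vacuolar proteins. The usual classification of the plant family by sequence is used below to order the genes (RD21-like, RD19-like, cathepsin B-like, aleurain-like and SAG12-like). It comes from general knowledge of the family and not from the tables, which give many of these genes no name beyond the locus.

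Signals were deposited on a linear scale in arbitrary units, and their log2 was compared between the genotypes with limma, with p-values adjusted over all 22746 probe sets other than the array's controls. A gene was called at an adjusted p under 0.05. Signals at or below 43.8, the highest signal of control probe sets with no added transcript, were taken as background, and 14 of the 18 genes were above it on all 6 arrays. Across probe sets, log2 signals correlated at 0.945 to 0.953 between arrays of one genotype and at 0.919 to 0.928 between genotypes. By this measure no array stood apart, although *rcb-10* replicate 1 had the lowest signal in several of the genes described below.

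Of the 18 genes, 2 were lower in *rcb-10*, 4 were higher and 12 did not pass. Among all probe sets 10.2% were called lower, 6.76% higher and 16.9% in either direction, beside 11.1%, 22.2% and 33.3% of the 18. Both directions occurred, and the median log2 change of the 18 was 0.03 (all probe sets, −0.04), whereas the median absolute log2 change was 0.72 (all probe sets, 0.38). That absolute median lies between the values of AT1G29080 and AT2G27420. AT1G29080 was at or below background on all arrays, and AT2G27420 on all *rcb-10* arrays and 1 Col-0 array. The called genes were 3 of 5 RD21-like genes, 2 of 3 RD19-like genes and 1 of 3 cathepsin B-like genes. At the fold of at least 2 that the methods also require, 3 of the 18 remained (16.7%, beside 7.22% of all probe sets), and these were the 3 RD21-like genes. Of those, 2 were lower and 1 was higher, beside 4.41% and 2.80% of all probe sets. In the 6 called genes the arrays of the genotypes did not overlap, and in the other 12 they did. Such separation was seen in 33.3% of the 18 and in 40.6% of all probe sets. The counts in each direction were the same after quantile normalization and with each array centred on its median, although centring moved the median of all probe sets by 0.17 on the log2 scale and turned the background to 6.56% lower and 11.2% higher.

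**Figure D1:**
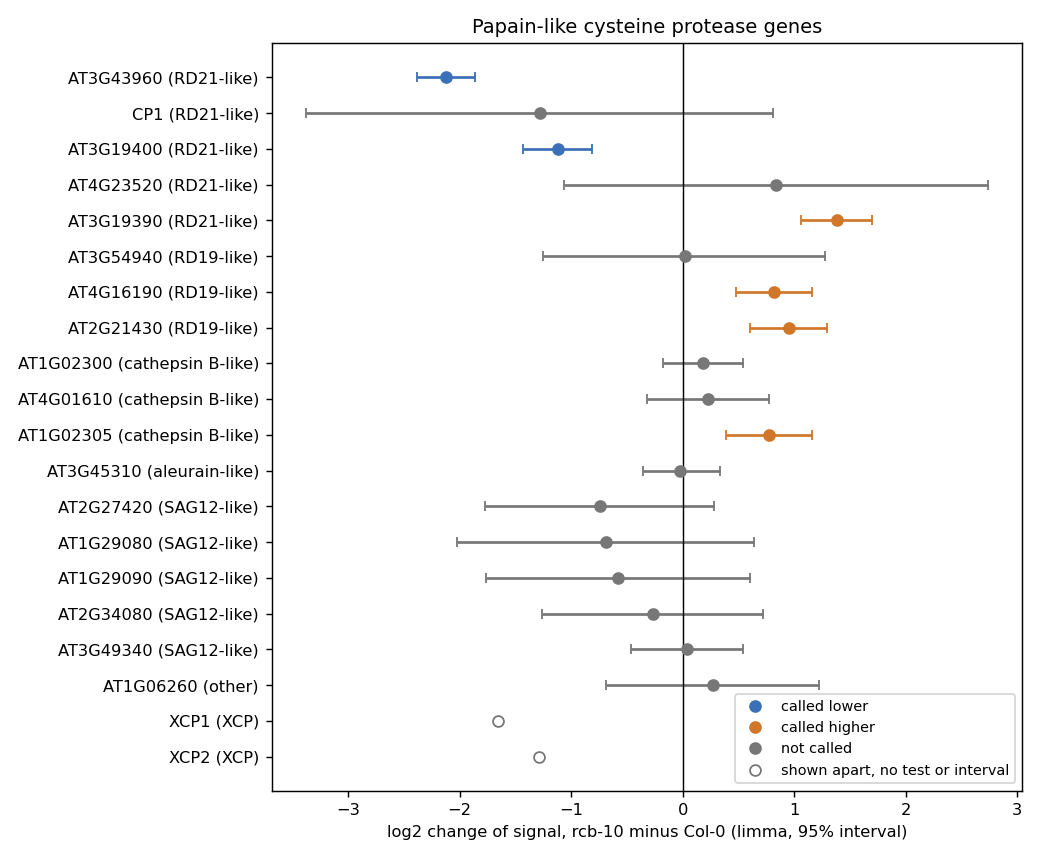
Log2 change of signal (*rcb-10* minus Col-0) of the 18 measured papain-like protease genes, ordered by group, with the 95% interval from limma; blue and orange mark genes called lower and higher, grey marks genes not called, and open circles mark XCP1 and XCP2, shown without test or interval. AT1G29080 was at or below background on all arrays, so its point has no meaning as a fold. The RD21-like genes span the widest range, from −2.12 (AT3G43960) to 1.38 (AT3G19390).

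The RD21-like group takes its name from RD21, a vacuolar protease of leaves whose transcript rises in drought. The largest fall among the 18 genes was that of AT3G43960, a putative cysteine proteinase gene that the study also lists as a direct target of the PIF transcription factors. Its signal was 482, 508 and 513 in Col-0 replicates 1, 2 and 3, and 109.9, 117 and 119.7 in the *rcb-10* replicates. The groups were far apart and tight, the highest *rcb-10* array lying well under the lowest Col-0 array. Signal was 4.34-fold lower (log2 change −2.12, standard error 0.10, adjusted p = 0.00381 in limma), and the call held in all 6 refits that left out 1 array (adjusted p up to 0.0263). In RNA of whole seedlings, fewer cells of a type and less RNA per cell cannot be told apart, here and for the genes that follow.

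AT3G19390 and AT3G19400 lie next to each other on chromosome 3 in the reference gene order, and both are annotated as putative cysteine proteinases of this group. They moved in opposite directions. AT3G19390 had signals of 619, 732 and 669 in Col-0 and of 1641, 1936 and 1676 in *rcb-10*. All *rcb-10* arrays were above all Col-0 arrays, 2.60-fold higher on average (log2 change 1.38, standard error 0.13, adjusted p = 0.00580 in limma). AT3G19400 had signals of 673, 631 and 735 in Col-0 and of 316, 337 and 285 in *rcb-10*. Here all *rcb-10* arrays were below, 2.18-fold lower on average (log2 change −1.12, standard error 0.13, adjusted p = 0.00792). Neither call was lost when any 1 array was left out (adjusted p up to 0.0316 for AT3G19390 and 0.0363 for AT3G19400).

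The log2 ratio of the 2 neighbours within an array does not depend on how arrays were scaled, and its change is free of the unknown brightness of each probe set. It was −0.12, 0.21 and −0.13 in the Col-0 arrays and 2.38, 2.52 and 2.56 in the *rcb-10* arrays. The ratio therefore shifted by 2.50 on the log2 scale. Since each gene already separated the genotypes, in opposite directions, the ratio had to separate them too. The exact permutation test (two-sided) could thus only give p = 0.100, the smallest p that 3 arrays against 3 can give, and adds no support. The probe sequences were not used, so the part that hybridization to related transcripts could play was not tested.

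CP1 (AT4G36880), whose other name in the reference is RD21A-LIKE PROTEASE1, varied more than it differed. Its signals in Col-0 were 169, 1585 and 746, a 9.39-fold spread between biological replicates of the wild type. In *rcb-10* they were 158, 321 and 272, within the range of Col-0 or just under it. The log2 change of −1.28 had a standard error of 0.84 (95% interval −3.38 to 0.81, adjusted p = 0.348 in limma). Without Col-0 replicate 1 the change was −2.18 and without Col-0 replicate 2 it was −0.56, and neither passed. AT4G23520, the fifth measured gene of the group, was near background, with 48.1, 8.27 and 44.5 in Col-0 and 28.9, 67.0 and 52.5 in *rcb-10*. One array of each genotype was at or below background, and the change was not called (adjusted p = 0.498).

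**Figure D2:**
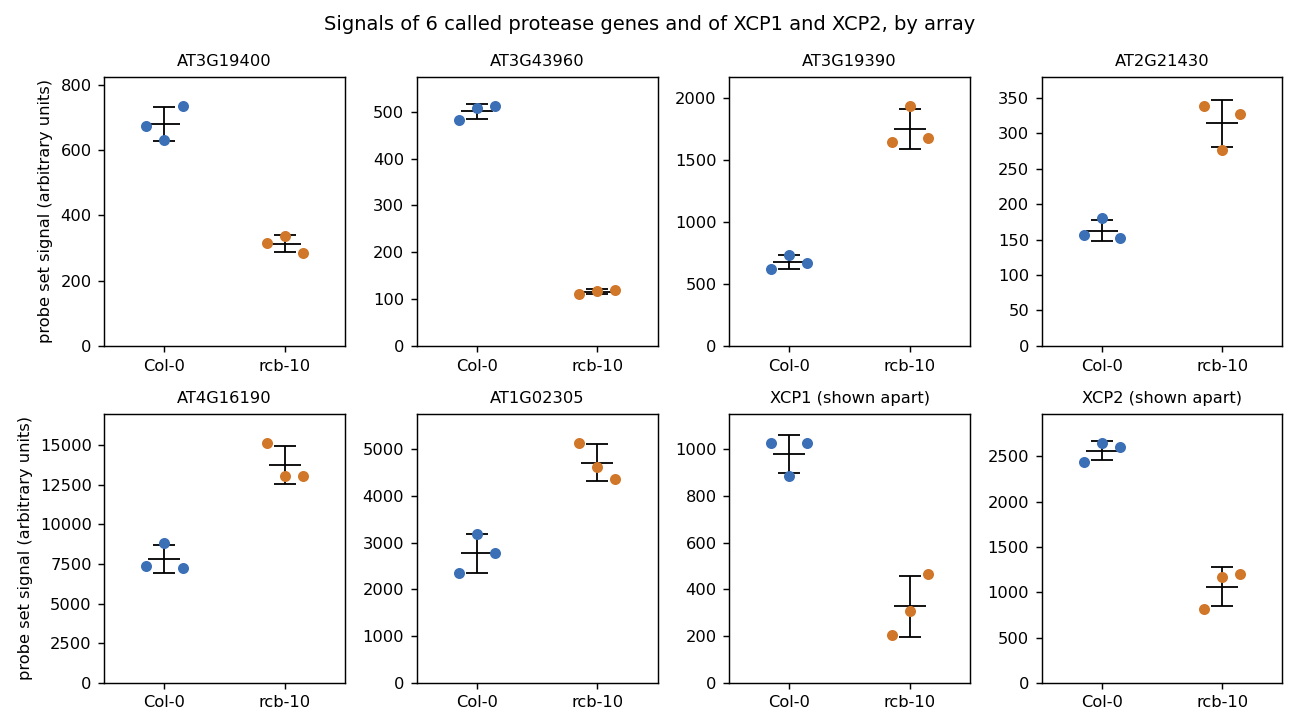
Probe set signal (arbitrary units, linear axis from 0) of each array for the 6 called genes and for XCP1 and XCP2, Col-0 in blue and *rcb-10* in orange, with bars for the mean and SD of 3 arrays. In every panel the genotypes are separated, from 482 to 513 against 109.9 to 119.7 for AT3G43960 to 2346 to 3179 against 4354 to 5138 for AT1G02305.

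The RD19-like group, named after another dehydration-responsive vacuolar protease, had 2 of 3 measured genes higher in *rcb-10*. AT2G21430 had signals of 156, 179.9 and 152 in Col-0 and of 339, 277 and 327 in *rcb-10*. The *rcb-10* arrays were all above the Col-0 arrays, 1.93-fold on average (log2 change 0.95, standard error 0.14, adjusted p = 0.0136 in limma). AT4G16190 was measured at 7354, 8796 and 7271 in Col-0 and at 15144, 13058 and 13072 in *rcb-10*. It too separated the genotypes, and was 1.76-fold higher (log2 change 0.82, standard error 0.14, adjusted p = 0.0179). AT3G54940 did not pass. Its Col-0 signals were close together (159, 152 and 127), and its *rcb-10* signals lay on both sides of them, at 65.8, 197 and 246 (log2 change 0.02, 95% interval −1.25 to 1.28). That interval is among the wider ones of the genes above background on all arrays.

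Cathepsin B-like proteases of plants are the relatives of the animal lysosomal enzyme and have been linked to cell death and senescence in Arabidopsis. All 3 genes of the group were measured, and 1 was higher in *rcb-10*. AT1G02305 had signals of 2346, 3179 and 2788 in Col-0 and of 5138, 4626 and 4354 in *rcb-10*. The lowest *rcb-10* array was above the highest Col-0 array, 1.71-fold on average (log2 change 0.77, standard error 0.16, adjusted p = 0.0280 in limma). Its neighbour on chromosome 1, AT1G02300, had signals of 493, 535 and 525 in Col-0 and of 692, 528 and 547 in *rcb-10*. The *rcb-10* arrays other than replicate 1 were within or just above the Col-0 range, and the log2 change of 0.18 was not called (95% interval −0.18 to 0.54, adjusted p = 0.453). The log2 ratio of AT1G02300 to AT1G02305 within an array fell by 0.60, from −2.25, −2.57 and −2.41 in Col-0 to −2.89, −3.13 and −2.99 in *rcb-10*, without overlap (exact permutation test, two-sided, p = 0.100, the smallest possible, and 0.100 after adjustment over the 2 pairs of neighbours tested). As that test cannot give a smaller p with 3 arrays against 3, it adds no support to the shift. AT4G01610 had signals of 2741, 4129 and 2468 in Col-0 and of 3469.6, 3361 and 3841 in *rcb-10*. Col-0 replicate 2 lay above all *rcb-10* arrays, and the log2 change was 0.23 (95% interval −0.32 to 0.77, adjusted p = 0.524). It was 0.45 without that array, 0.15 without Col-0 replicate 1 and 0.08 without Col-0 replicate 3.

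The calls of the smaller rises lay near the threshold, while their size moved little. For AT2G21430 the adjusted p in limma rose to 0.0545 without *rcb-10* replicate 3, with a log2 change of 0.92. AT4G16190 and AT1G02305 kept theirs only without Col-0 replicate 2, and missed the threshold in the other 5 refits (adjusted p up to 0.0609 and 0.0848). Over all 6 refits the log2 change was 0.89 to 1.04 for AT2G21430, 0.75 to 0.91 for AT4G16190 and 0.66 to 0.88 for AT1G02305. Among all probe sets, 474 to 967 were called higher with 5 arrays, against 1538 with 6.

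**Figure D3:**
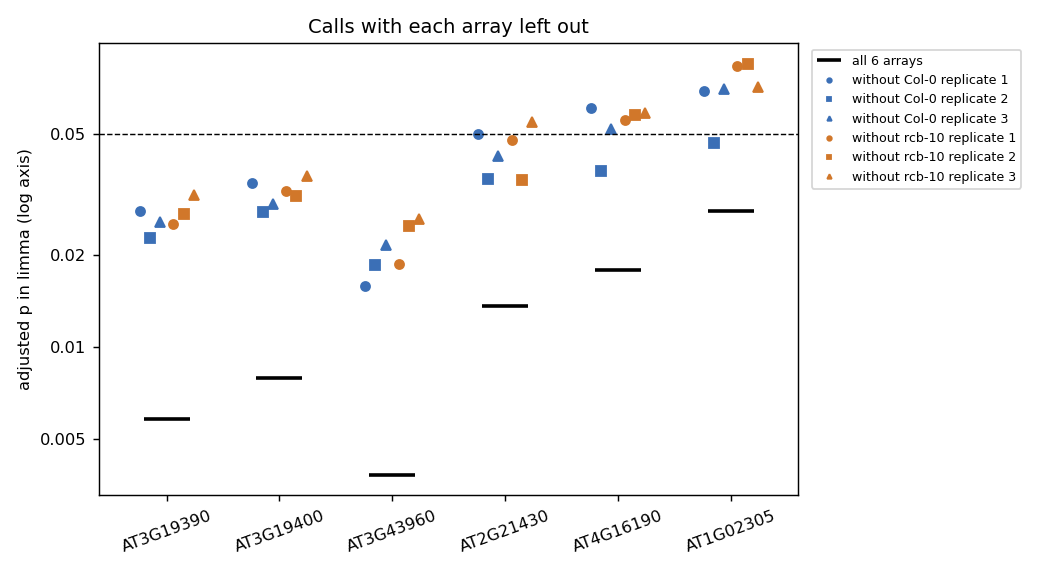
Adjusted p in limma (log axis) of the 6 called genes with all 6 arrays (black bars) and with each array left out (blue, a Col-0 array; orange, an *rcb-10* array; the symbol gives the replicate), with the threshold of 0.05 dashed. AT3G19390, AT3G19400 and AT3G43960 stay below the threshold in all 6 refits, whereas AT4G16190 and AT1G02305 stay below it in 1 of 6.

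Aleurain is a vacuolar aminopeptidase and protease first described in barley aleurone. AT3G45310, the aleurain-like gene measured here, had signals of 1480.4, 1467 and 1454 in Col-0 and of 1232, 1586 and 1559.6 in *rcb-10*. Its Col-0 arrays were nearly identical and lay between the *rcb-10* arrays. The log2 change was −0.02 with a 95% interval of −0.36 to 0.33 (adjusted p = 0.945 in limma), the narrowest interval among the genes not called.

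SAG12, the protease gene that gives the SAG12-like group its name, is a widely used marker of leaf senescence, but it was not analysed here. None of the 5 other genes of the group passed in limma, none at an unadjusted p under 0.05 and none by the methods' t-test. The 3 above background on all arrays had log2 changes from −0.58 to 0.04. AT1G29090 spread 3.05-fold within Col-0, with signals of 595, 1813 and 1171 in Col-0 and of 482, 935 and 837 in *rcb-10* (log2 change −0.58, 95% interval −1.76 to 0.60). The change was −1.01 without Col-0 replicate 1, −0.21 without Col-0 replicate 2 and −0.29 when replicate 1 of *rcb-10* was left out. AT2G34080 had 155, 182 and 160.0 in Col-0 and 73.9, 210.5 and 164 in *rcb-10*. AT3G49340 had 74.8, 102 and 85.0 in Col-0 and 84.2, 75.4 and 111 in *rcb-10*, with a log2 change of 0.04 (95% interval −0.46 to 0.54). In all 3 the genotypes overlapped.

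The other SAG12-like genes were at the limit of detection. AT1G29080, the neighbour of AT1G29090 on chromosome 1, was at or below background on all 6 arrays (8.20 to 41.1), so that no fold can be given. AT2G27420 was at or below background on all *rcb-10* arrays (22.0 to 37.4) and on 1 of the 3 Col-0 arrays (80.8, 29.7 and 52.3). Averaged on the log2 scale, its Col-0 signals were 1.14-fold the background level, and the change was not called (adjusted p = 0.271 in limma). AT1G06260, which the classification puts in a group of its own, had signals of 54.0, 29.4 and 52.5 in Col-0 and of 79.7, 35.7 and 50.9 in *rcb-10*, with 1 array of each genotype below background (log2 change 0.27, adjusted p = 0.679).

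**Figure D4:**
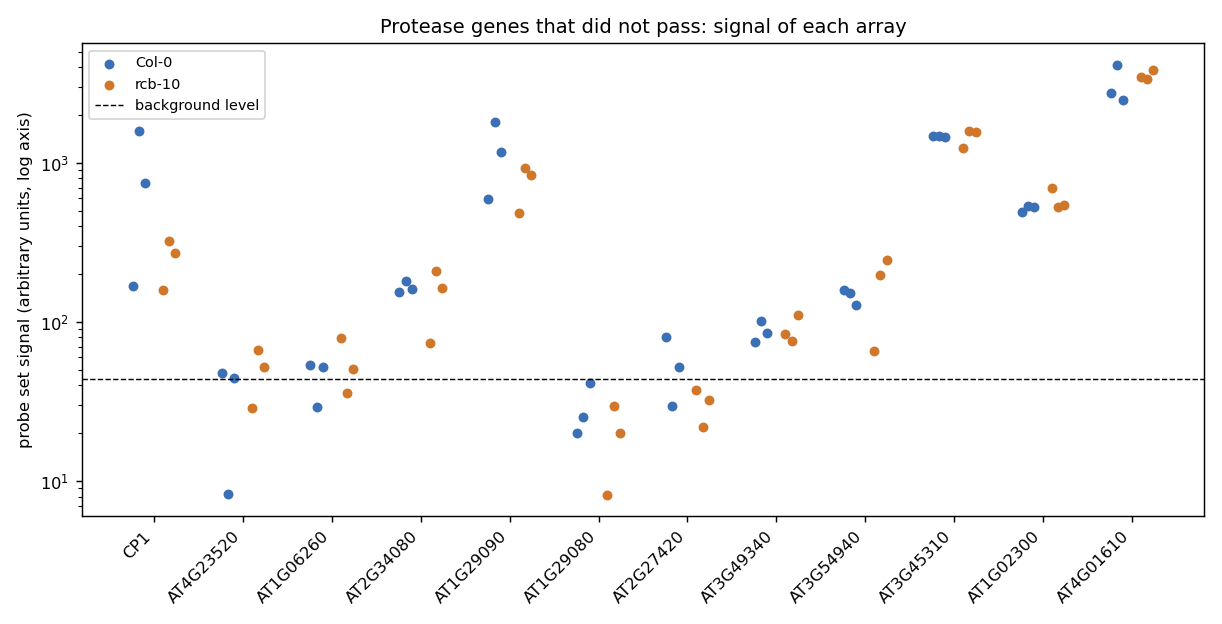
Probe set signal (arbitrary units, log axis) of each array for the 12 genes that did not pass, Col-0 in blue and *rcb-10* in orange, replicates 1 to 3 from left to right, with the background level of 43.8 dashed. The genotypes overlap for every gene, and CP1 spans 169 to 1585 within Col-0.

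The spread among replicates of one genotype was also compared between genes. Each gene's log2 signal was set against the mean of its genotype, and the deviations of the 14 genes above background on all arrays were correlated over the 6 arrays (91 pairs, median Pearson r = 0.21). These correlations are a description, since the genes share the same RNA on each array, and the pairs named next were picked from the 91 for their values. The deviations of CP1 and AT1G29090 correlated at 0.97, with both genes lowest on replicate 1 in either genotype and highest on replicate 2. AT3G45310 correlated at 0.97 with AT2G34080 and at 0.97 with AT3G54940, and these 3 genes shared a low value on *rcb-10* replicate 1. AT1G02300 ran against them, at −0.97 with AT3G45310, and was highest on that array. AT4G16190 and AT1G02305, both higher in *rcb-10*, correlated at 0.82. The *rcb-10* values of AT3G54940 spanned 3.74-fold, against 1.26-fold in Col-0.

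**Figure D5:**
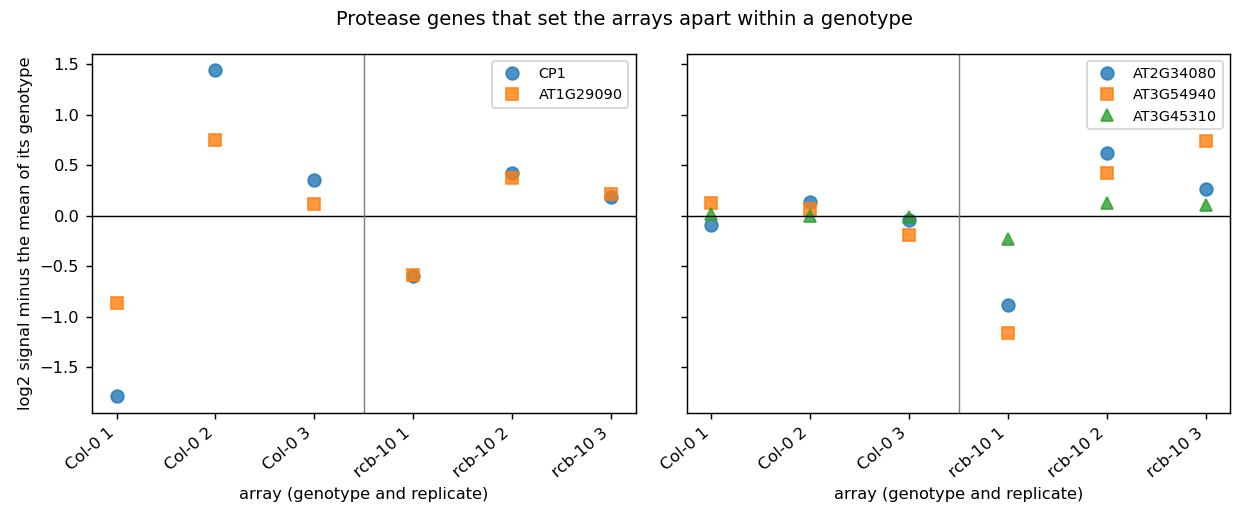
Log2 signal of each array minus the mean of its genotype for CP1 and AT1G29090 (left) and for AT2G34080, AT3G54940 and AT3G45310 (right), with the 3 Col-0 arrays left of the grey line and the 3 *rcb-10* arrays right of it. Replicate 1 is lowest in both genotypes on the left, and *rcb-10* replicate 1 is lowest on the right.

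XCP1 and XCP2, the xylem cysteine peptidases, act in the vacuoles of vessel elements and help to digest the cell contents as these cells die to form water-conducting tubes. XCP1 had signals of 1027, 886 and 1024 in Col-0 and of 206, 308 and 466 in *rcb-10* (log2 change −1.66, standard error 0.31). XCP2 had signals of 2440.4, 2650.1 and 2598 in Col-0 and of 815, 1167 and 1204 in *rcb-10* (log2 change −1.29, standard error 0.18). In both genes all *rcb-10* arrays were below all Col-0 arrays, replicate 1 being the lowest. No test is given, because their probe sets are known by name only from a list made for its change in these samples, and they entered no count. Of 18 listed genes of xylem vessel formation, none had a probe set named by the probe table, and 6 were named through the same supplementary list. Of these, chosen as examples after their values were seen, RNS3, a ribonuclease gene, had 814 ± 152 in Col-0 and 242 ± 56.1 in *rcb-10* (SD, n = 3 arrays). LAC4 and LAC17, laccase genes of lignin formation, had log2 changes of −1.29 and −1.84, and CESA4, a cellulose synthase gene of secondary walls, had −0.66. In the signals used here the CESA4 change was 1.58-fold, under the 2-fold limit of the supplementary list. The reason for this difference was not tested. The summed signal of the 6 genes was 3163 to 4168 in Col-0 and 1043 to 1515 in *rcb-10*. The supplementary list fixes that these genes changed, and the part that the amount of xylem plays in the values of XCP1 and XCP2 was not tested.

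Genes that act with these proteases were examined from lists made with earlier results of these data known. Of 4 genes of vacuolar processing enzymes, 1 was higher in *rcb-10* and 3 did not pass (median log2 change 0.24). Among all probe sets 6.76% were called higher and the median log2 change was −0.04. With 4 genes, 1 call does not describe the group. GAMMA-VPE, the main form of vegetative organs, had signals of 2864, 3376 and 3843 in Col-0 and of 6321, 6187 and 6139 in *rcb-10*, 1.86-fold higher on average (log2 change 0.90, standard error 0.14, adjusted p = 0.0159 in limma). In refits with 1 array left out it passed without Col-0 replicate 1 and without Col-0 replicate 3, and reached an adjusted p of up to 0.0586 in the other 4. ALPHA-VPE had 73.1, 96.2 and 66.1 in Col-0 and 68.4, 106 and 124 in *rcb-10* (log2 change 0.32, adjusted p = 0.475).

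Of 9 listed protease inhibitors 4 were dropped because the reference does not hold the listed name, and were not looked up. Of the 5 others 2 were measured, and neither passed in limma or by the methods' t-test, while 1 had an unadjusted p under 0.05. CYS1, a cystatin gene, had signals of 2395, 2182 and 1979 in Col-0 and of 1401, 1626 and 1735 in *rcb-10* (log2 change −0.46, 95% interval −0.81 to −0.11, adjusted p = 0.0785). The arrays did not overlap. CYS1 passed without the dimmest 25% of probe sets (adjusted p = 0.0378) and with a variance trend (0.0174), whereas median centring brought the log2 change to −0.29 (0.192, the highest over the alternatives). SERPIN1, whose product is known to inhibit RD21, had 902 ± 51.0 in Col-0 and 765 ± 27.7 in *rcb-10* (SD, n = 3 arrays; log2 change −0.24, adjusted p = 0.195). SERPIN1 passed with low signals raised to background (adjusted p = 0.0445), and its log2 change was −0.07 with median centring (0.705). APA1, a vacuolar aspartic protease gene and the only one of 3 listed whose name the reference holds (the others were not looked up), had a log2 change of 0.16 (adjusted p = 0.405). None of 9 listed metacaspase genes had a named probe set.

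Leaf senescence genes were examined because several of these proteases are known from senescing leaves. Of 15 listed, 4 had a probe set of their own, and none of these passed in limma or by the methods' t-test, while 1 had an unadjusted p under 0.05. WRKY53 had 39.1 ± 14.5 in Col-0 and 57.5 ± 20.4 in *rcb-10* (SD, n = 3 arrays; log2 change 0.56, adjusted p = 0.417), with 1 array of each genotype at or below background and a log2 change of 0.20 without Col-0 replicate 2 and 0.90 when replicate 1 of *rcb-10* was left out. WRKY6 had 178 ± 42.8 and 253 ± 15.8 (log2 change 0.53, adjusted p = 0.133). A further 4 were named through the supplementary list alone and had higher values in *rcb-10*, as that list fixes, from 1.40 for SEN1 to 2.30 for ASN1 on the log2 scale. Other names of SEN1 and ASN1 in the reference are DARK INDUCIBLE 1 and DARK INDUCIBLE 6, so their values are not read here as senescence. Of 10 listed root genes, 3 had a probe set of their own. Of these, 2 were lower in *rcb-10* and 1 did not pass (10.2% of all probe sets were called lower). The root hair expansin genes EXPA18 and EXPA7 were the lower ones (log2 change −1.50 and −1.06, adjusted p = 0.00433 and 0.0328 in limma). PYK10, a beta-glucosidase gene named here after its values were seen, was bright in both genotypes (20779 ± 2449 and 19429.9 ± 705, log2 change −0.09, adjusted p = 0.677). How far its signal follows the amount of root was not tested. A further 2 root genes were named through the supplementary list alone and were lower in value, as it fixes, PRP3 (523 ± 156 in Col-0 and 189 ± 34.9 in *rcb-10*, log2 change −1.45) and TIP2;3 (2043 ± 566 and 940.4 ± 184, log2 change −1.09). With 1 array left out, EXPA7 passed in 1 of 6 refits, the one without Col-0 replicate 2 (highest adjusted p 0.0914), and it missed the threshold after quantile normalization (0.0540), median centring (0.0535) and by the methods' t-test (0.0680). Of the listed markers of green cotyledons and seed reserves none had a probe set named by the probe table. GLK1, a transcription factor gene of chloroplast development, was named through the supplementary list alone and had 1111 ± 132 in Col-0 and 368 ± 12.0 in *rcb-10* (log2 change −1.59). The part that a change in root or green tissue plays in the protease values was not tested.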

How the data were processed

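Whole-seedling RNA of 3 Col-0 and 3 *rcb-10* biological replicates was hybridized to ATH1 arrays. The methods name GeneSpring GX and RMA, but the deposited values are linear intensities that the authors had scaled to a common trimmed mean (outer 2% at either end ignored). How these were derived is not given in the sources here. Their log2 was compared with limma 3.58.1 in R 4.3.3, with no further normalization, filter or block, over 22746 probe sets (64 array controls left out of 22810), with Benjamini-Hochberg adjustment. The design named limma on log2 values, so log2 was taken first.

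The probe table gives 1 gene for 13513 tested probe sets and several for 503, and does not list 8730. Of the 13513, 13436 were matched to a locus of TAIR10.1, which was used only for names and neighbours. The alternatives were other normalizations, filters and variance models, the methods' t-test (equal variances, on log2 of the deposited signals, no fold limit), a replicate block and leaving out each array. Every protease gene was named in the text. Of each list, the rule takes up to 4 passing genes, by size of change, or 2 genes where fewer than 2 pass. PYK10 and genes named through the supplementary list fall outside it. Listed names not found in the reference were dropped (7 of 85 genes). The protease genes and lists were chosen with earlier results of these data known, and genes named only through the supplementary list enter no count or test.

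Precision is limited by the number of arrays, and with 3 against 3 the smallest exact permutation p is 0.1. The fit was tested on simulated data. Python 3.11.15, pandas 2.3.3 and matplotlib 3.10.9 served for tables and plots. Protein, promoter and probe sequences were not used here.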

Additional observations from a re-analysis of the deposited data

How the results depend on the processing

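The 2 protease genes lower in *rcb-10* were called in each alternative but the replicate block, and in each refit without 1 array. The 4 higher genes were called under quantile normalization, median centring, removal of the dimmest 25% of probe sets, raising low signals to background, gene means, a variance trend, array weights, the methods' t-test and single-gene probe sets alone. A fold of at least 2 left 1 higher gene, and leaving out 1 array left 1 to 4 higher and 2 lower. With the replicate number as a block, 0 were lower and 0 higher in limma (8 of 18 had an unadjusted p under 0.05), and the 6 called genes had adjusted p from 0.0539 to 0.0983. That fit called 0 of all 22746 probe sets (6823 at an unadjusted p under 0.05). Over all probe sets, deviations from the genotype mean correlated at 0.0272, −0.0189 and 0.0197 between arrays of the same number. Between arrays of different numbers they correlated at −0.0552 to 0.0355. CP1 and AT1G29090 were lowest on replicate 1 and highest on replicate 2 in either genotype. An effect of the replicate number on single genes was not tested. Changes that were not called turned their sign in some settings: AT3G45310 to 0.15 with median centring, 0.03 with array weights and 0.10 without *rcb-10* replicate 1, and APA1 to −0.03 after quantile normalization. Without single arrays, AT1G06260 ranged from −0.04 to 0.54 (negative with Col-0 replicate 2 left out, −0.02, and with replicate 1 of *rcb-10* left out), AT2G34080 from −0.59 to 0.17 (positive without *rcb-10* replicate 1), AT3G49340 from −0.12 to 0.16 (negative with Col-0 replicate 1 left out, −0.07, and with replicate 3 of *rcb-10* left out), and AT3G54940 from −0.35 to 0.60 (negative with Col-0 replicate 3 left out, −0.08, and with replicate 2, −0.19, or 3 of *rcb-10* left out). The cause was not tested. Signals near background limit 4 of the 18 genes.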
